A study of Drosophila melanogaster with 9 samples.

Results

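The transcriptional response of starved Drosophila S2 cells to the insulin-like peptide DILP2 was read from 6 RNA-Seq libraries. All were held without serum for 16 h in medium with albumin. Of these, 3 then received 100 nM DILP2 for 1 h and 3 received the acid solvent alone (vehicle) for the same time, and the replicates are called A, B and C. The series holds 9 libraries in all, the other 3 having received DILP5 at the same dose and time. Of the 13937 genes in the table of counts, 8981 had enough counts to be tested, and those 8981 genes are described here. Levels are given as CPM, the count of a gene relative to its library total after TMM scaling, which corrects that total for composition. A gene is said to be called, or to rise or fall, where the quasi-likelihood F test of edgeR gave it a Benjamini-Hochberg adjusted p below 0.05 across the genes tested. Because many calls are close to that threshold, the fit was repeated 9 times with 1 library left out each time, and a call that was lost in any of these is said to be so beside the gene or its list. The sources used here do not say whether the replicates were separate cultures, so the p-values measure the spread between these libraries, which may be in part technical.

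S2 cells are an established line from Drosophila embryos with features of hemocytes, the blood cells of the fly. They carry the fly's insulin receptor, InR, and answer to insulin-like peptides in culture. DILP2 is a secreted peptide that brain neurosecretory cells release after feeding. When such a peptide binds InR, the adaptor Chico and the kinase PI3K pass the signal to Akt. Akt holds the transcription factor FOXO out of the nucleus, and the pathway also raises the activity of the kinase complex TORC1. FOXO and the factor REPTOR, which TORC1 restrains, drive genes of the starved state, while TORC1 and Myc favour the making of ribosomes. The comparison asks which of these programmes had moved in mRNA level after 1 h of DILP2.

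The 6 libraries held from 28365854 to 36394904 counts on genes. DILP2 replicate C stood farthest from the other replicates of its group. The chi-square per gene between it and replicates A and B was 22.4 and 16.5, beside 7.65 between A and B. Replicate C was the farthest in the other groups too. Its values were 11.7 and 10.7 in vehicle, beside 7.54 between A and B, and 29.3 and 19.2 with DILP5, beside 8.94. Whether the letter C marks a shared effect was not tested. The label of a hemocyte-like line was checked on 11 markers. All 11 had counts, as did all markers of the other cell types given next, and 9 of the 11 had enough to be tested. The summed level of the 11 was from 2192 to 2305 CPM in the vehicle libraries and from 2051 to 2177 CPM with DILP2. In contrast, 9 fat body markers summed to between 1.45 and 2.13 CPM, 10 muscle markers to between 43.7 and 51.1 CPM and 10 germline markers to between 45.4 and 50.3 CPM over the 6 libraries. The summed level of 9 neuron markers was from 197 to 222 CPM in vehicle and from 184 to 205 CPM with DILP2. Whether these shifts have a part in the results was not tested. In bulk RNA, fewer cells of a kind and less RNA per cell cannot be told apart.

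DILP2 changed many genes by small amounts. Of the 8981 genes, 981 were called (10.9%), 479 higher (5.33%) and 502 lower (5.59%). The median size of change was 1.196-fold among the genes called higher and 1.24-fold among those called lower. Only 13 of the 479 and 14 of the 502 changed at least 2-fold, and 36 and 68 of them changed by 1.5-fold or more. Among the 6186 genes with a mean of at least 10 CPM, called well counted here, 876 were called (14.2%), 463 higher (7.48%) and 413 lower (6.68%). The 3 DILP2 libraries lay beyond the 3 vehicle libraries for 35.6% of the well-counted genes and for 30.4% of all genes tested. The split of the calls depended on the scaling. With library totals in place of TMM, 307 genes were called higher and 778 lower. Fewer genes were called without some single libraries: 487 without vehicle replicate C, 508 without vehicle replicate A, 523 without DILP2 replicate A and 651 without DILP2 replicate B.

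**Figure D1:**
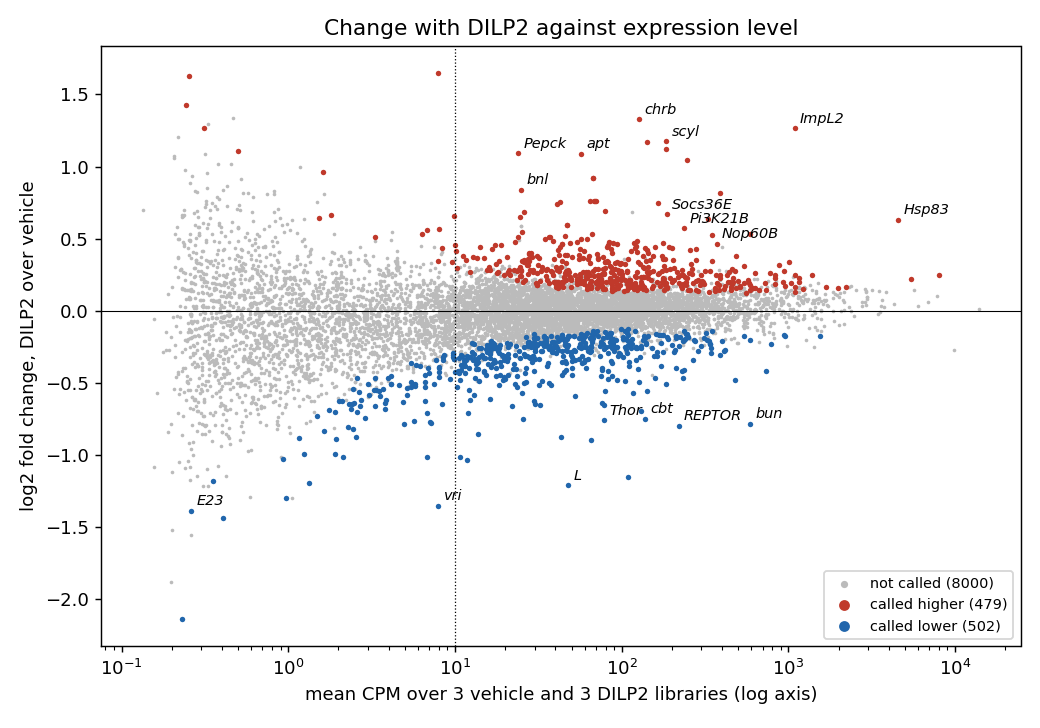
Log2 fold change of DILP2 over vehicle (vertical axis) against the mean CPM of the 6 libraries (horizontal log axis) for the 8981 genes tested, with genes called higher in red, genes called lower in blue and the dotted line at 10 CPM. The labelled genes are described in the text, and most coloured points lie within 1 log2 unit of 0.

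Rises and falls were spread unevenly over expression level. Of the 1676 genes between 1 and 10 CPM, 12 were called higher and 83 lower. At 10 to 100 CPM the numbers were 253 and 310 of 4003 genes. At 100 to 1000 CPM they were 194 and 102 of 2042 genes, and above 1000 CPM 16 and 1 of 141 genes. Gene structure also went with direction. The genes found in the BDGP6 annotation were put in 4 classes of equal size by exonic length. Of the 2153 genes of the shortest class (up to 1264 bases), 110 were called higher and 27 lower, and of the 2152 of the longest class (from 3436 bases) 85 were called higher and 212 lower. Of the 1159 genes with 9 or more exons, 26 were called higher and 94 lower, while of the 1529 genes with 2 exons, 93 were called higher and 54 lower. A trend on length was then removed within each library, for the 8608 tested genes with a known length. With that, 551 genes were called higher and 430 lower. Over the chromosome arms, between 4.83% and 5.93% of the genes tested on 2L, 2R, 3L, 3R and X were called higher, and between 4.22% and 6.79% lower. Of the 61 genes tested on chromosome 4, 0 were called higher and 2 lower.

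The largest rises among well-counted genes were those of inhibitors of growth signalling and of mitochondrial and metabolic genes. The 11 described here were called, and their 3 DILP2 libraries lay above the 3 vehicle libraries. chrb (FBgn0036165) and scyl (FBgn0041094) encode the fly homologues of REDD proteins, which restrain TORC1. chrb had 72.04, 72.8 and 72.2 CPM in vehicle replicates A, B and C and 189, 176 and 179 CPM with DILP2, and scyl had 118, 107 and 115 CPM and 276, 248 and 243 CPM. The replicates of each group lay close together and the groups were far apart, with log2 fold change 1.33, standard error 0.04, adjusted p = 9.33e-09 for chrb and log2 fold change 1.18, standard error 0.06, adjusted p = 2.36e-07 for scyl. ImpL2 (FBgn0001257), a secreted protein that binds insulin-like peptides, had 722, 594 and 604 CPM in vehicle and 1699.8, 1569 and 1353 CPM with DILP2 (log2 fold change 1.27, standard error 0.13, adjusted p = 9.67e-05). DILP2 replicate C was the lowest of the 3 and was still well above the highest vehicle library.

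Carriers of the mitochondrion were in the same class. CG8026 (FBgn0033391), a protein of the mitochondrial carrier family, had 117, 118 and 115 CPM in vehicle and 259, 265 and 237 CPM with DILP2 (log2 fold change 1.12, standard error 0.06, adjusted p = 3.39e-07). CG32103 (FBgn0052103, SCaMC), a carrier of ATP-Mg and phosphate, had 161, 158 and 162 CPM and 338, 329.6 and 323 CPM (log2 fold change 1.04, standard error 0.04, adjusted p = 2.38e-08). Both about doubled without overlap of the groups. Pepck (FBgn0003067), phosphoenolpyruvate carboxykinase, an enzyme of gluconeogenesis that insulin lowers in mammalian liver, was higher with DILP2 as well. It had 14.4, 14.02 and 17.5 CPM in vehicle and 33.01, 32.03 and 32.9 CPM with DILP2 (log2 fold change 1.09, standard error 0.08, adjusted p = 7.78e-06), and in BDGP6 it shares exonic sequence with a gene on the same strand, as does CG8026.

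A transcription factor and a growth factor were also in the class. apt (FBgn0015903), a transcription factor of tracheal and border cell development, had 34.98, 36.7 and 37.1 CPM in vehicle and 76.3, 74.7 and 80.2 CPM with DILP2 (log2 fold change 1.09, standard error 0.05, adjusted p = 9.80e-08), and it overlaps genes on the other strand. bnl (FBgn0014135), the fibroblast growth factor that guides tracheal branches, had 19.8, 17.4 and 16.6 CPM and 31.8, 30.9 and 33.8 CPM (log2 fold change 0.84, standard error 0.07, adjusted p = 2.93e-05). For bnl, the highest vehicle library was well below the lowest DILP2 library. Another ligand of the fibroblast growth factor family, pyr (FBgn0033649), named here after its values were seen, went the other way, from 27.5, 28.04 and 25.1 CPM in vehicle to 16.8, 18.4 and 15.9 CPM with DILP2 (log2 fold change -0.66, standard error 0.08, adjusted p = 5.15e-04). The last members were B4 (FBgn0023407), with 280.3, 281 and 283 CPM and 490.5, 494 and 499 CPM, and the heat shock genes Hsp70Aa and Hsp70Ab, which are described with their family. Each of the 11 stayed called in the 9 fits that left out 1 library.

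The largest falls also included parts of growth signalling. The strongest was that of L (FBgn0001332), which encodes Lobe, the fly homologue of the TORC1 inhibitor PRAS40. It had 65.4, 65.9 and 68.2 CPM in vehicle replicates A, B and C and 28.2, 28.6 and 29.5 CPM with DILP2 (log2 fold change -1.21, standard error 0.06, adjusted p = 2.36e-07). CG13624 (FBgn0039209), which encodes REPTOR, had 279, 259 and 297 CPM and 157, 148 and 176 CPM (log2 fold change -0.80, standard error 0.08, adjusted p = 5.99e-05). Thor (FBgn0261560), the translation inhibitor 4E-BP and a textbook FOXO target, had 115, 86.5 and 92.3 CPM and 65.1, 63.5 and 45.3 CPM (log2 fold change -0.76, standard error 0.20, adjusted p = 0.0299). All 3 fell without overlap of the groups. Thor varied most between replicates: its adjusted p was 0.113 without vehicle replicate A, 0.0701 without vehicle replicate C, and 0.0510, 0.0592 and 0.0729 without DILP2 replicates A, B and C. The other 11 genes of the class were called in all 9 fits that left out 1 library.

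The other falls included those of transcription regulators. CG11347 (FBgn0035542, TP53INP), whose mammalian homologues act in autophagy and transcription, had 148, 141 and 163 CPM in vehicle and 62.4, 65.5 and 75.1 CPM with DILP2 (log2 fold change -1.15, standard error 0.10, adjusted p = 2.36e-05). bun (FBgn0259176), a TSC22 family protein that promotes growth, had 743, 711 and 783 CPM and 418, 421 and 461 CPM (log2 fold change -0.78, standard error 0.05, adjusted p = 5.38e-06). cbt (FBgn0043364), a Krueppel-like transcription factor, had 184, 166 and 168 CPM and 105, 100.5 and 103 CPM (log2 fold change -0.75, standard error 0.05, adjusted p = 5.93e-06). Each of the 3 was lower in every DILP2 library than in any vehicle library. by (FBgn0000244), tensin, which links integrins to actin, had 29.3, 33.5 and 32.99 CPM and 17.2, 18.3 and 21.2 CPM (log2 fold change -0.75, standard error 0.10, adjusted p = 5.94e-04). The remaining 5 genes, CG7083, CG18171, CG6770, CG10365 and CG12214, had log2 fold changes between -1.03 and -0.85. CG10365 overlaps a proteasome gene on the opposite strand, and the handling of strand is not given in the sources used here.

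**Figure D2:**
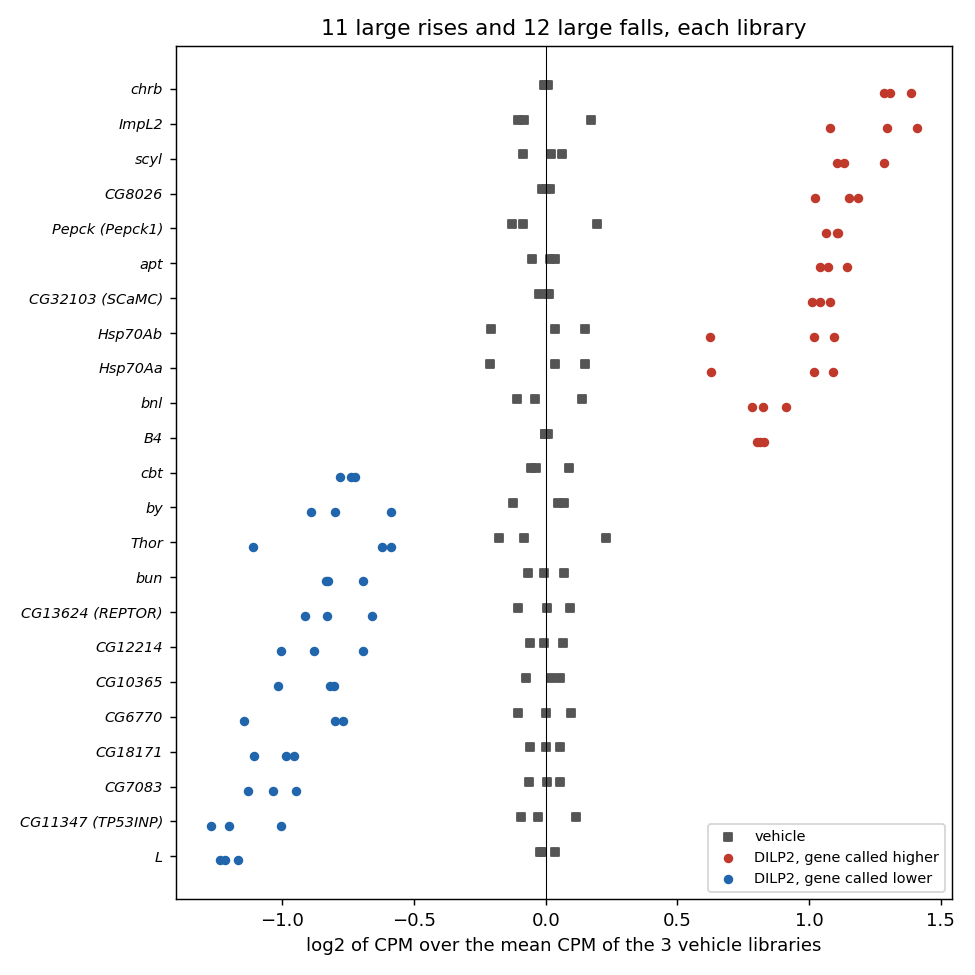
Log2 of the CPM of each library over the mean CPM of the 3 vehicle libraries (horizontal axis) for the 11 rises and 12 falls described, which are among the largest of the well-counted called genes, with 3 vehicle libraries as grey squares and 3 DILP2 libraries as red or blue circles. The DILP2 points lie on 1 side of the vehicle points in each row, and Thor, ImpL2 and the Hsp70 genes show the widest spread between replicates.

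The pathway that DILP2 itself engages had calls in both directions. Of 36 insulin and TOR pathway genes that were tested, 5 were called higher and 9 lower, which is 13.9% and 25% beside 5.33% and 5.59% over all genes. The median log2 fold change of the list was -0.06, beside -0.0022 over all genes. Several of these genes are named in the study from these same libraries, so the list is not independent of the data. The lower calls numbered 5 without vehicle replicate A or C or DILP2 replicate B, and 5 with the length trend removed.

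The falls in this pathway included components that carry the signal. InR had 286, 254 and 272 CPM in vehicle and 203, 199 and 188 CPM with DILP2 (log2 fold change -0.46, standard error 0.06, adjusted p = 4.13e-04). Pk61C, the kinase PDK1 that activates Akt, had 212, 227 and 209.8 CPM and 152, 157 and 147 CPM (log2 fold change -0.51, standard error 0.05, adjusted p = 4.07e-05), and step, a cytohesin that acts downstream of InR, had 114, 115 and 110.3 CPM and 90.7, 93.996 and 87.1 CPM (log2 fold change -0.32, standard error 0.06, adjusted p = 0.00452). The groups did not overlap for any of these genes. In contrast, Pi3K21B, the regulatory subunit of PI3K, rose from 187, 191 and 192 CPM to 280.3, 282 and 285 CPM, with a spread between replicates of a few CPM (log2 fold change 0.57, standard error 0.04, adjusted p = 4.80e-06). srl, listed as Spargel, encodes the fly homologue of the coactivator PGC-1 and had 146, 151 and 149 CPM and 206, 210.0 and 201 CPM (log2 fold change 0.47, standard error 0.04, adjusted p = 2.36e-05). Rheb, the GTPase that activates TORC1, and Tsc1, part of the complex that inactivates it, were not called (log2 fold changes -0.07 and 0.07, adjusted p = 0.495 and 0.334).

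**Figure D3:**
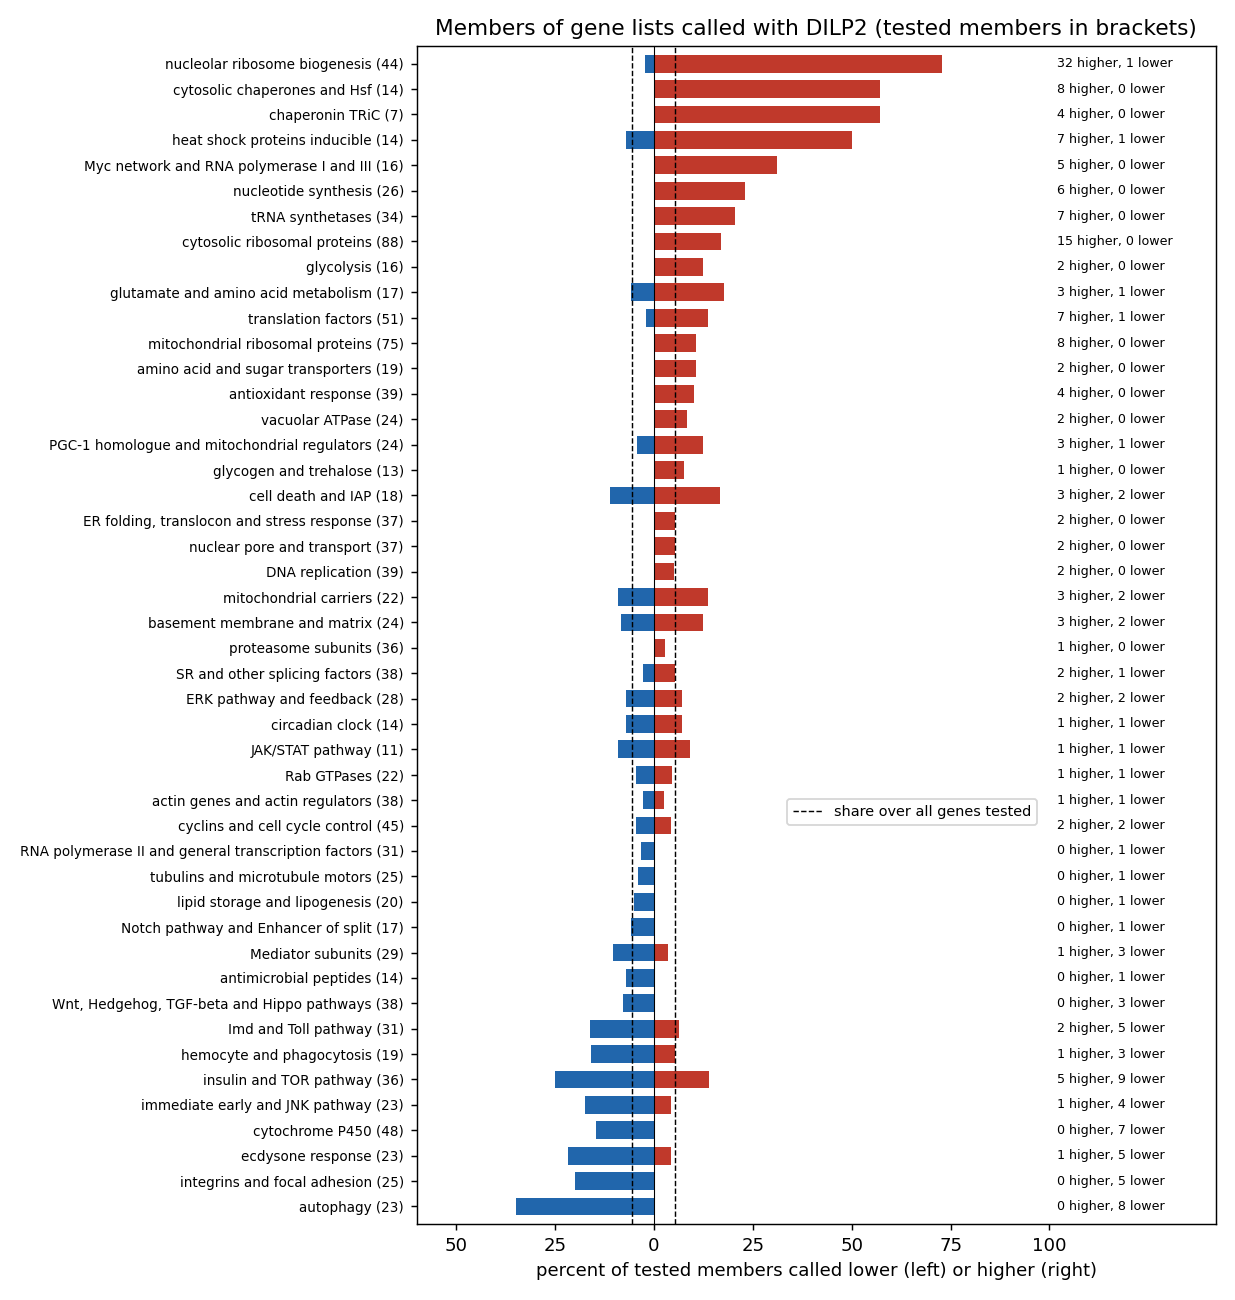
Percent of the tested members of each gene list called lower (blue, left) or higher (red, right) with DILP2, with the number tested in brackets and the dashed lines at 5.59% and 5.33%, the shares over all genes tested. Among the lists plotted, ribosome biogenesis has the largest share of higher calls and autophagy the largest share of lower calls.

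Most genes that build ribosomes rose. Nucleolar and ribosome assembly factors process ribosomal RNA and mount it with proteins, a major expense of a growing cell. Of 44 such genes tested, 32 were called higher (72.7%, beside 5.33% over all genes) and 1 lower. The median log2 fold change was 0.31, a 1.24-fold rise. Of the 44, 42 had a positive change, and in 36 the 3 DILP2 libraries lay above the 3 vehicle libraries, beside 30.4% in either direction over all genes. The median of the members relative to the vehicle mean was 0.33, 0.25 and 0.33 log2 units in DILP2 replicates A, B and C, and -0.04, 0.05 and 0.00 in the vehicle libraries. The rises did not hinge on 1 library, with 25 to 33 members called higher in the fits that each left out 1. They numbered 27 with library totals only and 32 of 43 with the length trend removed. One listed gene, CG16892, encodes the nuclear pore protein Aladin and is no assembly factor, and it was not called (adjusted p = 0.191).

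The rises took in several steps of the process. Among the proteins of the small nucleolar particles that modify ribosomal RNA, nop5 had 271, 292 and 288 CPM in vehicle and 415, 397 and 417 CPM with DILP2 (log2 fold change 0.53, standard error 0.04, adjusted p = 2.00e-05). Nop60B, the pseudouridine synthase dyskerin, had 311, 315 and 310.3 CPM and 429, 420.5 and 442 CPM (log2 fold change 0.46, standard error 0.04, adjusted p = 1.56e-05). For both, the lowest DILP2 library was well above the highest vehicle library. The methyltransferase Fib (fibrillarin), Nop56 and NHP2 also rose, with log2 fold changes of 0.36, 0.28 and 0.37. Among the factors that assemble the subunits, the kinase CG11660 (RIOK1) had 29.6, 30.99 and 31.3 CPM and 45.9, 43.5 and 42.004 CPM (log2 fold change 0.51, standard error 0.05, adjusted p = 6.43e-05). The largest rise of the list was that of l(3)72Dn, with 19.5, 21.4 and 20.9 CPM and 29.8, 33.2 and 27.1 CPM, followed by nop5, l(2)34Fd (0.52) and RIOK1. Of the exosome, which trims ribosomal RNA, Rrp46, Rrp40 and Dis3 rose by 0.36, 0.21 and 0.19 log2 units, and Rrp6, Rrp4, Rrp42, Mtr3, Ski6 and Csl4 were not called. The call of Rrp46 was lost without vehicle replicate A or DILP2 replicate A (adjusted p up to 0.0677), that of Rrp40 was lost without vehicle replicate A or C or DILP2 replicate A (adjusted p up to 0.0888) and that of Dis3 was lost without vehicle replicate A, B or C or DILP2 replicate B or C (adjusted p up to 0.0930). The single fall was that of CG1553 (Nop17l), a cofactor of the assembly of small nucleolar particles (log2 fold change -0.17, standard error 0.04, adjusted p = 0.0249), and it was lost without vehicle replicate A or C or DILP2 replicate A or C (adjusted p up to 0.106).

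RNA polymerase I, which transcribes ribosomal RNA, gave the same picture on a smaller scale. Of 16 genes listed for the Myc network and for RNA polymerases I and III, 5 were called higher (31.2%, beside 5.33% over all genes). The median log2 fold change was 0.16. RpI135, the second largest subunit of polymerase I, had 94.3, 97.3 and 99.2 CPM in vehicle and 129, 133 and 125 CPM with DILP2 (log2 fold change 0.41, standard error 0.05, adjusted p = 3.08e-04). CG3756 (Polr1C), a subunit shared by polymerases I and III, had 26.1, 30.3 and 29.3 CPM and 41.3, 38.2 and 41.6 CPM (log2 fold change 0.50, standard error 0.06, adjusted p = 5.04e-04). The groups were apart for both genes. The largest subunit, RpI1, rose by 0.20 and the small subunit RpI12 by 0.57 log2 units (adjusted p = 0.0148, and 0.0675 without vehicle replicate C). The other call was that of CG5033, a listed gene that encodes no polymerase subunit, which rose by 0.35 log2 units. dm, the gene of Myc itself, had 357, 314 and 364 CPM and 422, 367 and 473 CPM and was not called (log2 fold change 0.29, standard error 0.10, adjusted p = 0.0965).

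The ribosomal proteins and the translation machinery had smaller changes. Over all genes 5.33% were called higher, and over the well-counted genes 7.48%. Of 88 cytosolic ribosomal protein genes, 15 were called higher (17.0%) and the median log2 fold change was 0.13. The 4 largest called rises were those of RpL36, RpL10Ab, RpS9 and RpLP0-like, from 0.25 to 0.27 log2 units. RpLP0-like came into the list by its symbol and is not itself a ribosomal protein of the cytosol. None of these 4 calls held in all 9 fits that left out 1 library. RpS9, for example, had 1332, 1234 and 1233 CPM in vehicle and 1614, 1488 and 1401 CPM with DILP2, and the groups were apart by less than the range within them. The higher calls of this list numbered 0 without vehicle replicate C or DILP2 replicate A, 1 without vehicle replicate B, 3 without vehicle replicate A and 6 without DILP5 replicate B. With library totals only, 2 were called, and with the length trend removed 7 of 83, where the median was 0.07. Of 75 mitochondrial ribosomal protein genes, 8 were called higher (10.7%) with a median of 0.12. Without single libraries the higher calls numbered 1 without vehicle replicate A or C or DILP2 replicate A. With library totals only they numbered 3, and with the length trend removed 6, with a median of 0.07.

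Translation factors and tRNA synthetases, which charge tRNAs with amino acids, were alike in this. Among 51 translation factor genes, 7 were called higher (13.7%, beside 5.33% over all genes) and Thor lower, with a median of 0.06. eEF1delta, an exchange factor of elongation, had 267, 286 and 266 CPM in vehicle and 347, 316 and 310.5 CPM with DILP2 (log2 fold change 0.25, standard error 0.05, adjusted p = 0.00980). Among 34 synthetase genes, 7 were called higher (20.6%) with a median of 0.08, led by Aats-his (262, 268 and 261 CPM and 316, 309 and 294 CPM, log2 fold change 0.22). Both genes stayed called when any 1 library was left out, but the counts did not hold. For translation factors the number called higher was 1 without vehicle replicate C or DILP2 replicate A, 2 without vehicle replicate A, 3 without DILP2 replicate B and 4 without vehicle replicate B. For synthetases it was 1 without vehicle replicate A or C or DILP2 replicate A or B and 3 without vehicle replicate B. With library totals only, 2 translation factors and 1 synthetase were called higher.

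Several autophagy genes fell and none rose. Autophagy digests cell contents in starved cells, and TORC1 holds it in check. Of 23 genes tested, 8 were called lower (34.8%, beside 5.59% over all genes) and 0 higher (0 by DESeq2). Of the 23, 22 had a negative change, with a median log2 fold change of -0.13. The lower calls numbered 5 without vehicle replicate C, DILP2 replicate A or C, or DILP5 replicate B. The median was -0.16 with library totals only and -0.15 with the length trend removed, with 9 and 7 members called. Relative to the vehicle mean, the median of the list was -0.12, -0.13 and -0.19 log2 units in DILP2 replicates A, B and C. The calls that were lost were those of Atg2, Atg18 and CG7053 (Atg101), each near the threshold (adjusted p = 0.0483, 0.0432 and 0.0498).

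The largest falls were in genes that act early in the process. CG8678 (Atg18b), which binds phosphoinositide lipids, had 35.7, 37.8 and 37.6 CPM in vehicle and 23.5, 22.9 and 24.4 CPM with DILP2 (log2 fold change -0.65, standard error 0.06, adjusted p = 3.07e-05). CG1347 (Atg17), the scaffold of the Atg1 kinase complex, had 94.5, 88.5 and 101 CPM and 65.8, 61.9 and 65.7 CPM (log2 fold change -0.56, standard error 0.05, adjusted p = 5.33e-05), and the protease CG6194 (Atg4b) had 23.2, 20.7 and 20.5 CPM and 14.8, 15.6 and 14.8 CPM (log2 fold change -0.51, standard error 0.07, adjusted p = 6.84e-04). In all 3 the highest DILP2 library was below the lowest vehicle library by more than the range within either group. The kinase Atg1 itself had 70.8, 69.4 and 71.3 CPM and 57.6, 59.8 and 56.3 CPM (log2 fold change -0.29, standard error 0.04, adjusted p = 0.00227). ird1 (Vps15), a subunit of the lipid kinase complex of autophagy, fell by 0.42 log2 units, from 35.1, 34.3 and 32.2 CPM to 25.9, 27.04 and 23.2 CPM. These 5 genes were called in all 9 fits that left out 1 library. Atg8a, the ubiquitin-like marker of autophagosomes, had 154, 152 and 147 CPM and 139.5, 137 and 132 CPM and was not called (log2 fold change -0.15, standard error 0.06, adjusted p = 0.158), and neither was the cargo receptor ref(2)P (adjusted p = 0.157).

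**Figure D4:**
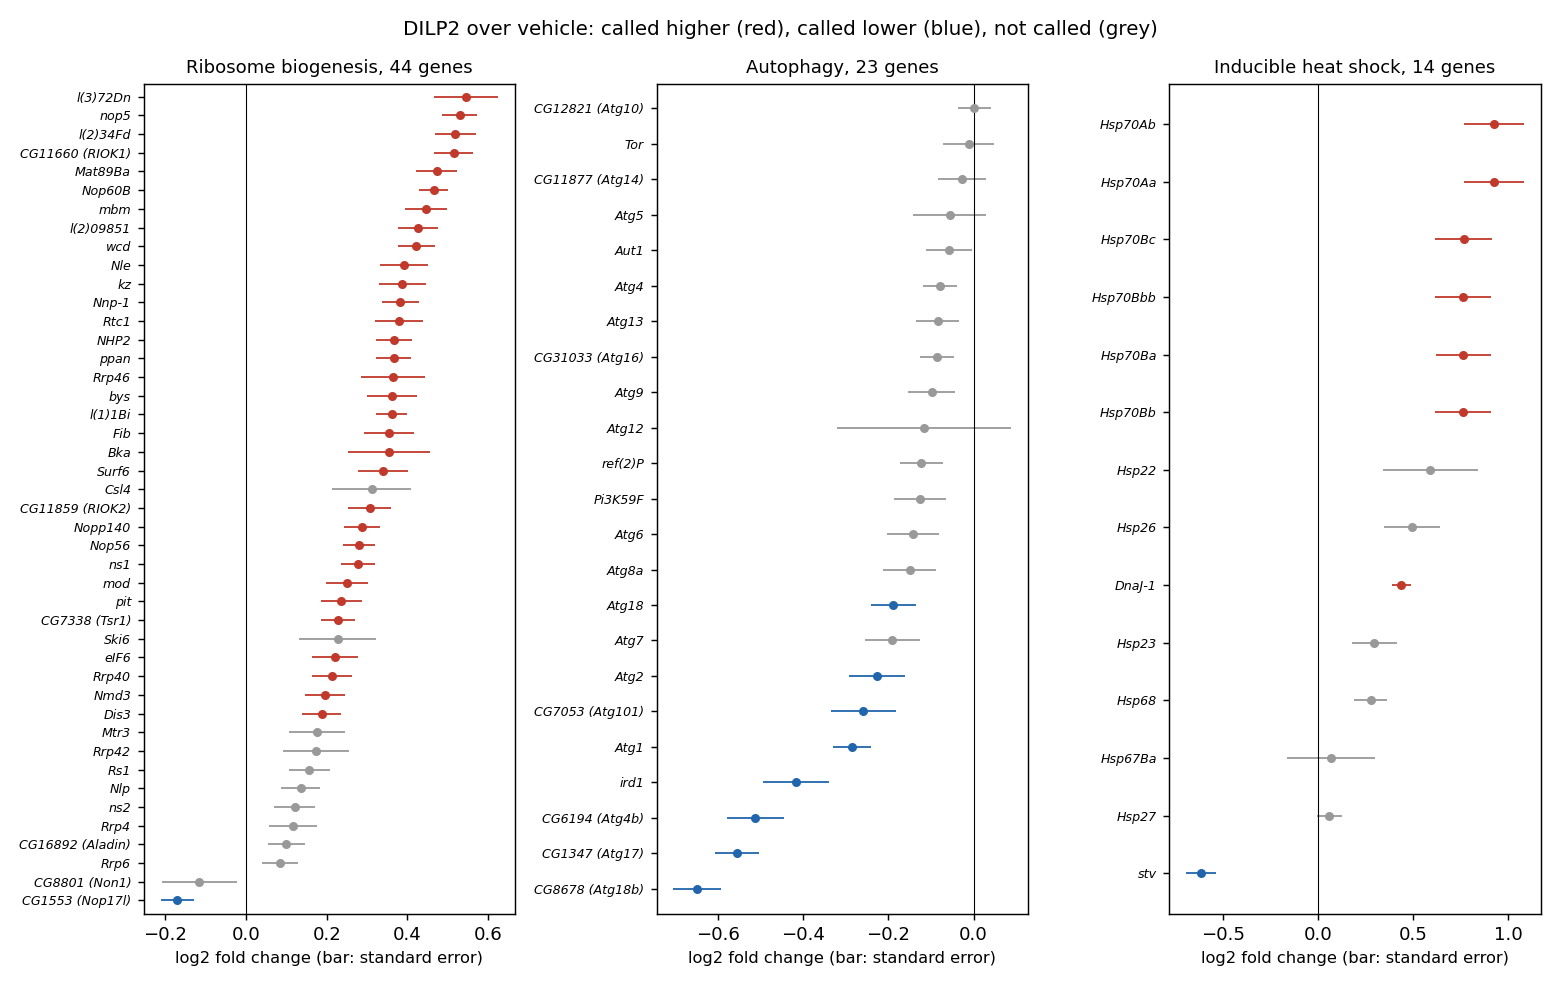
Log2 fold change of DILP2 over vehicle with its standard error (horizontal axes) for the 44 ribosome biogenesis genes, 23 autophagy genes and 14 inducible heat shock genes tested, in red where called higher, blue where called lower and grey where not called. The ribosome biogenesis genes lie between -0.17 and 0.55, and the autophagy genes between -0.65 and 0.00.

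Chaperone genes of both the inducible and the constitutive kind rose. Of 14 heat shock genes of the inducible kind, 7 were called higher (50%, beside 5.33% over all genes), and the median log2 fold change was 0.54. The 6 Hsp70 genes among these 7 are near-identical copies at 2 clusters, so that reads can be shared between them and they count as few independent results. Hsp70Aa had 51.6, 40.2 and 47.7 CPM in vehicle and 99.2, 94.1 and 71.8 CPM with DILP2 (log2 fold change 0.92, standard error 0.16, adjusted p = 0.00389), and Hsp70Bc had 57.3, 42.3 and 50.9 CPM and 98.9, 86.9 and 70.5 CPM (log2 fold change 0.76, standard error 0.15, adjusted p = 0.00806). The groups did not overlap, and DILP2 replicate C was the lowest of its group. Without that library 11 members were called higher. DnaJ-1, an Hsp40 partner of Hsp70, rose from 171, 169 and 167 CPM to 239, 227 and 221 CPM (log2 fold change 0.44, standard error 0.05, adjusted p = 3.69e-04). The small heat shock genes Hsp22, Hsp23, Hsp26 and Hsp27 were not called, with log2 fold changes from 0.06 to 0.59. stv, a BAG-domain partner of Hsp70, went down, from 14.97, 14.5 and 15.5 CPM to 10.3, 9.79 and 9.23 CPM (log2 fold change -0.62, standard error 0.08, adjusted p = 5.92e-04).

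Among 14 cytosolic and mitochondrial chaperone genes with Hsf, 8 were called higher (57.1%, beside 5.33% over all genes), with a median of 0.14. Hsp83, the fly Hsp90 and one of the most abundant transcripts measured, had 3626, 3424 and 3712 CPM in vehicle and 5663, 5507 and 5488 CPM with DILP2 (log2 fold change 0.63, standard error 0.05, adjusted p = 2.00e-05). Every DILP2 library was above every vehicle library by more than the range within either group. The mitochondrial Hsc70-5 had 387, 398 and 383 CPM and 469, 462 and 459 CPM (log2 fold change 0.25, standard error 0.04, adjusted p = 0.00198). These 2 stayed called when any 1 library was left out. The constitutive Hsc70-4 rose by 0.22 log2 units, a call lost without vehicle replicate A or B or DILP2 replicate C (adjusted p up to 0.0812). The higher calls of the list numbered 2 without vehicle replicate A, 4 without vehicle replicate B or DILP2 replicate A or B and 5 without vehicle replicate C or DILP2 replicate C. The chaperonin TRiC, which folds actin and tubulin, had 4 of 7 subunit genes called higher and all 7 with a positive change, at a median of 0.16. The TRiC calls numbered 0 without vehicle replicate A, 1 without DILP2 replicate B and 2 without DILP2 replicate A.

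Several metabolic genes changed with DILP2. Nmdmc, an enzyme of mitochondrial folate metabolism, had 41.7, 49.1 and 45.1 CPM in vehicle and 63.3, 60.7 and 65.2 CPM with DILP2 (log2 fold change 0.48, standard error 0.07, adjusted p = 0.00121), without overlap of the groups. Of 26 genes of nucleotide synthesis, 6 were called higher (23.1%, beside 5.33% over all genes) and 22 had a positive change, with a median of 0.12. Among the called was r-l, which makes UMP (66.98, 72.6 and 70.6 CPM and 85.8, 91.2 and 88.3 CPM, log2 fold change 0.34). The higher calls numbered 1 without vehicle replicate A, 2 without vehicle replicate C or DILP2 replicate A, B or C and 3 without DILP5 replicate B, and 1 with library totals only. Pdk, the kinase that shuts down pyruvate dehydrogenase, fell from 64.8, 61.3 and 63.6 CPM to 40.98, 41.7 and 43.4 CPM (log2 fold change -0.59, standard error 0.06, adjusted p = 5.84e-05). Pdk was named after its values were seen. The lipase bmm (brummer), which releases fat from stores, had 114, 122 and 111 CPM and 94.3, 97.8 and 96.7 CPM (log2 fold change -0.26, standard error 0.04, adjusted p = 0.00285). Glycogen phosphorylase, GlyP, had 442, 385 and 414 CPM and 417, 429 and 395 CPM, with overlapping groups and a log2 fold change near 0 (standard error 0.06, adjusted p = 0.997). The hexokinase Hex-C, CG33774 and the citrate transporter Indy, genes that were also chosen for qRT-PCR, were not called (log2 fold changes -0.59, 0.55 and 0.15, adjusted p = 0.0762, 0.107 and 0.188). The study reported Hex-C and CG33774 as changed by DILP2 alone and verified both by qRT-PCR in separate samples. In the present data Hex-C was called by edgeR's likelihood ratio test, and all 3 genes were called with the replicate letters as a block.

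No call was made in the machinery of respiration. By edgeR's quasi-likelihood test, 0 of 71 genes of the respiratory chain and ATP synthase were called, beside 12 with an unadjusted p under 0.05 and 4 called higher by DESeq2, with a median log2 fold change of 0.07. The numbers for 15 genes of the TCA cycle were 0, 3 and 1, with a median of 0.07. Among 22 mitochondrial carriers, 3 were called higher and 2 lower (13.6% and 9.09%, beside 5.33% and 5.59% over all genes). Besides CG8026 and CG32103, sesB, the ADP/ATP carrier, was called higher by 0.19 log2 units, lost without vehicle replicate A or C or DILP2 replicate A (adjusted p up to 0.0866). One of the 2 called lower, att-ORFA (DPCoAC, a carrier of dephospho-CoA), had 18.8, 19.2 and 20.6 CPM and 12.5, 12.9 and 12.9 CPM (log2 fold change -0.61, standard error 0.06, adjusted p = 1.46e-04), and it overlaps att-ORFB, which fell by 0.55 log2 units. The other was CG18317 (Rim2), a carrier of pyrimidine nucleotides, with a log2 fold change of -0.23 (adjusted p = 0.0121), lost without vehicle replicate C or DILP2 replicate A (adjusted p up to 0.0545). Of 36 proteasome subunit genes, Prosalpha5 was called higher by 0.17 log2 units, lost without vehicle replicate A, B or C or DILP2 replicate A or B (adjusted p up to 0.107), and 35 had a positive change, with a median of 0.07.

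Some genes of the ecdysone response fell. Ecdysone, the steroid of molting, acts through the receptor EcR and a cascade of early transcription factors, some of which S2 cells express. Of 23 such genes tested, 5 were called lower (21.7%, beside 5.59% over all genes) and ImpL2, which belongs to this list too, higher. vri (vrille), a bZIP repressor of both the ecdysone and the clock list, had 11.5, 10.8 and 11.9 CPM in vehicle and 4.25, 4.63 and 4.49 CPM with DILP2 (log2 fold change -1.35, standard error 0.09, adjusted p = 5.33e-06), a 2.55-fold fall with less than 2 CPM between replicates. EcR had 111, 96.02 and 109 CPM and 83.8, 82.1 and 89.03 CPM (log2 fold change -0.31, standard error 0.06, adjusted p = 0.00592), and Sox14, an early target, had 52.1, 48.3 and 53.9 CPM and 37.4, 39.8 and 38.05 CPM (log2 fold change -0.42, standard error 0.06, adjusted p = 6.87e-04). The DILP2 libraries lay below the vehicle libraries for each of these. Eip74EF fell by 0.35 log2 units (adjusted p = 0.0319), a call lost without vehicle replicate A or C or DILP2 replicate A or B (adjusted p up to 0.129). The fifth call, E23, rested on under 1 CPM and was lost when any 1 library was left out (adjusted p up to 0.191). The lower calls of the list numbered 3 without vehicle replicate A or C or DILP2 replicate A or B. In the clock list, cwo, a repressor that answers to the clock proteins, rose from 164, 159 and 163 CPM to 219, 217 and 226 CPM (log2 fold change 0.45, standard error 0.04, adjusted p = 2.36e-05), so the 2 called genes of that list of 14 went opposite ways.

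Innate immune signalling had calls in both directions. The Imd and Toll pathways sense bacteria and end in the NF-kappaB factors Rel and Dif. Of 31 genes of these pathways, 2 were called higher and 5 lower (6.45% and 16.1%, beside 5.33% and 5.59% over all genes), and 16 had a positive change, with a median of 0.01. DESeq2 called 4 higher and 5 lower. Rel had 313, 305 and 323 CPM in vehicle and 258, 253 and 267 CPM with DILP2 (log2 fold change -0.28, standard error 0.04, adjusted p = 0.00220), and Tab2, an adaptor of the Imd kinase Tak1, had 67.3, 66.9 and 66.2 CPM and 49.4, 57.04 and 52.1 CPM (log2 fold change -0.34, standard error 0.05, adjusted p = 0.00198). pirk, which blocks the Imd receptors, rose from 31.2, 33.4 and 31.2 CPM to 53.1, 52.8 and 55.2 CPM (log2 fold change 0.75, standard error 0.06, adjusted p = 1.89e-05), so that an inhibitor of the pathway was higher and its transcription factor lower. Dif had 26.7, 28.6 and 34.97 CPM and 16.7, 18.5 and 25.3 CPM (adjusted p = 0.0465), a call lost without vehicle replicate A, B or C, DILP2 replicate A or B, or DILP5 replicate A or B (adjusted p up to 0.177). The other falls, of ird5 (IKKbeta, the kinase that activates Rel; -0.28 log2 units) and of the recognition protein gene PGRP-LA (-0.21 log2 units), were also not stable. The call of ird5 was lost without vehicle replicate A (adjusted p 0.0650) and that of PGRP-LA was lost without vehicle replicate A, B or C or DILP2 replicate A or B (adjusted p up to 0.115). PGRP-SD, another recognition protein, rose by 0.20 log2 units, lost without vehicle replicate A or C or DILP2 replicate A (adjusted p up to 0.133). The lower calls of the list numbered 2 without vehicle replicate A and 3 without vehicle replicate B or C or DILP2 replicate A or B. Of 14 antimicrobial peptide genes, the products of these pathways, CecC was the only call, lower with DILP2 (23.9, 23.5 and 24.4 CPM and 16.8, 17.98 and 17.99 CPM, log2 fold change -0.44, standard error 0.06, adjusted p = 0.00119). It makes up 7.14% of that list, near the 5.59% of all genes. Of the 14, 9 had a positive and 5 a negative change, with a median of 0.05.

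Related signalling lists had a few calls in each direction. In the JAK/STAT pathway the feedback inhibitor Socs36E rose from 161, 136 and 134 CPM to 248, 236 and 201 CPM (log2 fold change 0.67, standard error 0.10, adjusted p = 0.00154). Stat92E, its transcription factor, had 422, 414 and 457 CPM and 358, 365 and 394 CPM (log2 fold change -0.21, adjusted p = 0.0330), a call lost without vehicle replicate A or C, DILP2 replicate A or B, or DILP5 replicate B (adjusted p up to 0.139). Of 23 immediate early and JNK pathway genes, 4 were called lower (cbt, crp, raw and Tis11) and Mmp1 higher (log2 fold change 0.34, standard error 0.05, adjusted p = 0.00252). The lower calls are 17.4% of that list, beside 5.59% over all genes. crp, raw and Tis11 fell by 0.18 log2 units each, and the lower calls numbered 1 without vehicle replicate A or C or DILP2 replicate A and 2 without DILP2 replicate B, with cbt among them in every fit. Of the 28 genes of ERK signalling, 7.14% were called higher and 7.14% lower, near the 5.33% and 5.59% of all genes. Called higher were sty (sprouty) and Gap1, feedback inhibitors of Ras, and called lower were csw and aop (-0.20 and -0.20 log2 units). sty had 804, 730.4 and 816 CPM and 958, 937 and 1041 CPM (log2 fold change 0.32, standard error 0.06, adjusted p = 0.00592), and Gap1 had 314, 299 and 308 CPM and 372, 366 and 375 CPM (log2 fold change 0.27, standard error 0.04, adjusted p = 6.84e-04). Both were higher in every DILP2 library than in any vehicle library, and both stayed called when any 1 library was left out. The call of csw, a phosphatase that promotes the signal, was lost without vehicle replicate A, B or C or DILP2 replicate A or B (adjusted p up to 0.152), and that of the repressor aop was lost without vehicle replicate A or C or DILP2 replicate A or B (adjusted p up to 0.115).

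Some genes of hemocyte identity, adhesion and matrix changed. The summed hemocyte-like markers given above, which are not scaled by TMM, were lower with DILP2. That sum includes srp and ush, described next, so it is not separate from their falls. The part of the summed markers in these results was not tested. srp (serpent), the GATA factor that specifies hemocytes, had 373, 370.1 and 395 CPM in vehicle and 294, 299.8 and 333.82 CPM with DILP2 (log2 fold change -0.30, standard error 0.05, adjusted p = 0.00494). ush, its cofactor, had 458, 452 and 455 CPM and 369, 381 and 379 CPM (log2 fold change -0.27, standard error 0.04, adjusted p = 0.00117). Of 19 hemocyte and phagocytosis genes, 3 were called lower (15.8%, beside 5.59% over all genes) and Ppn, a matrix protein, higher. Without DILP2 replicate C the numbers were 5 and 2. The third fall, of the engulfment receptor drpr (-0.23 log2 units), was lost without vehicle replicate B or C or DILP2 replicate A (adjusted p up to 0.0635). Integrin adhesion ties cells to the matrix. Of 25 such genes, 5 were called lower (20%, beside 5.59% over all genes). Among them were Src64B (56.3, 57.9 and 56.7 CPM and 47.4, 45.6 and 48.2 CPM, log2 fold change -0.28, standard error 0.04, adjusted p = 0.00163) and CAP, a vinculin partner (log2 fold change -0.28, adjusted p = 0.0107). The lower calls numbered 3 without vehicle replicate A or C or DILP2 replicate A or B, with by, CAP and Src64B among the calls in every fit, and the median of -0.08 became -0.02 with the length trend removed. In the matrix list of 24 genes, 12.5% were called higher and 8.33% lower, beside 5.33% and 5.59% over all genes. Ppn, Mmp1 and PH4alphaEFB, which hydroxylates collagen, were called higher, by 0.36, 0.34 and 0.27 log2 units. The lectin glec fell by 0.53 log2 units, and CG6199 (Plod), which hydroxylates lysine in collagen, by 0.25, a call lost without vehicle replicate C or DILP2 replicate A (adjusted p up to 0.0637).

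Other classes had few or no calls that held. Of 48 cytochrome P450 genes, which act on hormones and foreign compounds, 7 were called lower (14.6%, beside 5.59% over all genes), with a median log2 fold change of -0.15. Of the 7, 5 were under 10 CPM, such as Cyp6a8 with 5.67, 6.41 and 6.70 CPM in vehicle and 3.31, 3.73 and 3.84 CPM with DILP2. The lower calls numbered 1 without vehicle replicate A or DILP2 replicate A and 2 without vehicle replicate B or C or DILP2 replicate B, so that most calls of this list needed the full set of libraries. In the cell cycle list of 45 genes, 4.44% were called higher and 4.44% lower, near the 5.33% and 5.59% of all genes. CycB and CycD were called higher (0.23 and 0.21 log2 units, adjusted p = 0.00695 and 0.0254). The call of CycD was lost without vehicle replicate C or DILP2 replicate A or B (adjusted p up to 0.107). Rbf2 and BubR1 were called lower (-0.22 and -0.14 log2 units), a call lost without vehicle replicate A, B or C, DILP2 replicate A, B or C, or DILP5 replicate B (adjusted p up to 0.145) for Rbf2 and lost without vehicle replicate A, B or C, DILP2 replicate A, B or C, or DILP5 replicate A or B (adjusted p up to 0.155) for BubR1. Of 39 DNA replication genes, mus209, which encodes the sliding clamp PCNA, was called higher (196, 197 and 205 CPM and 234.01, 224 and 245 CPM, log2 fold change 0.23, standard error 0.04, adjusted p = 0.00563), as was RfC38 (0.18 log2 units), lost without vehicle replicate A or C or DILP2 replicate B or C (adjusted p up to 0.129). The higher calls are 5.13% of that list, near the 5.33% of all genes. By edgeR's quasi-likelihood test 0 of 116 histone genes and 0 of 30 glutathione S-transferase genes were called, beside 2 and 4 with an unadjusted p under 0.05 and 0 and 0 called by DESeq2. Histone copies share reads, and the median of the 116 was 0.34, -0.17 and -0.18 log2 units in the vehicle libraries relative to their mean, a wider spread than in any list of the plot of medians by library.

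**Figure D5:**
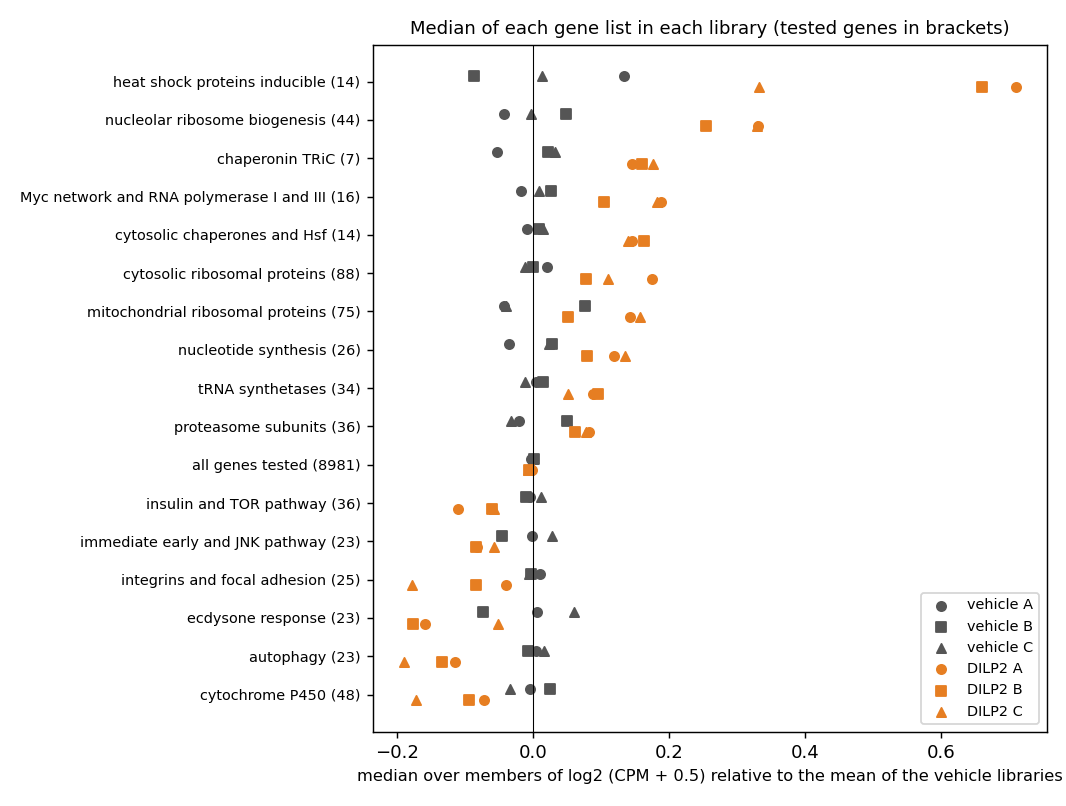
Median over the tested members of each list of the log2 of CPM plus 0.5 relative to the mean of the vehicle libraries (horizontal axis), with 1 point for each of 3 vehicle libraries (grey) and 3 DILP2 libraries (orange), and the number of members in brackets. The DILP2 points of ribosome biogenesis lie to the right of its vehicle points and those of autophagy to the left, while the points of the mitochondrial ribosomal proteins and of the ecdysone list overlap between the groups.

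Single genes stood out in lists that otherwise had few calls. trbl (tribbles), a pseudokinase that binds and restrains Akt, had 67.7, 59.5 and 68.2 CPM in vehicle and 78.02, 80.9 and 79.8 CPM with DILP2 (log2 fold change 0.29, standard error 0.05, adjusted p = 0.00613), and Fs(2)Ket, importin beta, which carries proteins into the nucleus, had 196, 187 and 199 CPM and 228, 232 and 241 CPM (log2 fold change 0.27, standard error 0.05, adjusted p = 0.00559). The splicing factor SC35 had 99.3, 95.6 and 97.9 CPM and 111, 123 and 119 CPM (log2 fold change 0.27, standard error 0.04, adjusted p = 0.00281). All 3 were higher in each DILP2 library than in any vehicle library. ltd (Rab32), a GTPase of pigment granules and lysosome-related organelles, rose by 0.66 log2 units from a low level (7.85, 6.96 and 7.98 CPM and 11.02, 11.4 and 13.6 CPM, adjusted p = 0.00245). Among the falls, neur, a ubiquitin ligase of Notch signalling, had 38.6, 42.2 and 40.1 CPM and 30.1, 30.2 and 32.3 CPM (log2 fold change -0.38, standard error 0.07, adjusted p = 0.00574), and the formin dia had 83.6, 77.3 and 84.3 CPM and 65.4, 63.9 and 68.3 CPM (log2 fold change -0.31, standard error 0.06, adjusted p = 0.00700). Klp98A, a kinesin, and the Mediator subunits MED16 and MED25 fell by 0.28, 0.31 and 0.26 log2 units (adjusted p = 0.0111, 0.00842 and 0.00790). These 9 genes, like Tapdelta of the translocon (0.19 log2 units), were called in every fit that left out 1 library. bun was the only call of that kind among 38 genes of the Wnt, Hedgehog, TGF-beta and Hippo pathways, since the call of ptc was lost without vehicle replicate A or C or DILP2 replicate A or B (adjusted p up to 0.0847) and that of Mad was lost without vehicle replicate A or C, DILP2 replicate A or B, or DILP5 replicate A or B (adjusted p up to 0.159).

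The other lists had calls near the threshold. Their counts stand beside 5.33% called higher and 5.59% called lower over all genes. Of 39 antioxidant genes, Trx-2, Trxr-1, Gclm and Keap1 were called higher, by 0.14, 0.16, 0.17 and 0.28 log2 units, and the calls of the list numbered 0 without vehicle replicate A or DILP2 replicate B, 1 without vehicle replicate B or C and 2 without DILP2 replicate A. Of 18 cell death genes, debcl, dream and AIF were called higher and th and Nc lower, all by less than 0.20 log2 units, and each call was lost without most single libraries. Of 16 glycolysis genes, Eno and Pglym78 were called higher (0.13 and 0.17 log2 units). The call of Eno was lost without vehicle replicate A, B or C, DILP2 replicate A, B or C, or DILP5 replicate B or C (adjusted p up to 0.154) and that of Pglym78 was lost without vehicle replicate A, B or C or DILP2 replicate A or B (adjusted p up to 0.119). Treh, which splits trehalose, was the single call among 13 genes of glycogen and trehalose at 0.26 log2 units, lost without vehicle replicate B or C or DILP2 replicate A or B (adjusted p up to 0.0667). Tal (transaldolase) was the single call among 5 genes of the pentose phosphate path at 0.28 log2 units, lost without vehicle replicate C or DILP2 replicate A (adjusted p up to 0.0571). Of 24 subunit genes of the vacuolar ATPase, Vha36-1 and Vha68-2 were called higher (0.19 and 0.14 log2 units). The call of Vha36-1 was lost without vehicle replicate C or DILP2 replicate A (adjusted p up to 0.0686) and that of Vha68-2 was lost without vehicle replicate A, B or C, DILP2 replicate A, B or C, or DILP5 replicate B (adjusted p up to 0.122). Of 19 amino acid and sugar transporter genes, CG5535 and CG7888 were called higher (0.17 and 0.23 log2 units). The call of CG5535 was lost without vehicle replicate A, B or C or DILP2 replicate A or B (adjusted p up to 0.101) and that of CG7888 was lost without vehicle replicate A, B or C or DILP2 replicate A or B (adjusted p up to 0.0928). The calls of Trn, Sxl, Act57B, Rab27, Cdk8, MED19, Taf6, ewg, Tom70, Gs1 and slgA were each lost in at least 1 fit that left out a library. The 13 genes encoded in the mitochondrion had 0 calls by edgeR's quasi-likelihood test, 1 gene with an unadjusted p under 0.05 and 0 calls by DESeq2.

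To see whether the response was particular to DILP2, the same genes were read in the cells given DILP5, which share the vehicle libraries. Because the genes were chosen by their change from these vehicle libraries, values are given side by side and nothing is read from their likeness. For L the log2 fold change was -1.21 with DILP2 and -1.27 with DILP5, for Pepck 1.09 and 0.99, for bnl 0.84 and 0.85 and for by -0.75 and -0.56. In the list of ribosome biogenesis 32 of 44 were called higher with DILP5, beside 6.28% of all genes, and the median was 0.29, and in that of autophagy 8 of 23 were called lower, beside 6.78%, with a median of -0.16. When DILP5 and DILP2 were compared directly by the quasi-likelihood test of edgeR, 0 genes of 8981 passed at an adjusted p of 0.05 and 208 had an unadjusted p under 0.05. No other tool was run on this contrast. Of the 23 genes described for their large rises and falls, 0 had an unadjusted p under 0.05. Their log2 differences of DILP5 over DILP2 lay between -0.11 and 0.19. By this test, fitted with no block, no gene could thus be called particular to DILP2 at this depth and replication. The study's own edgeR analysis of these libraries did report a few genes that differed between DILP2 and DILP5, among them CG33774. Here the quasi-likelihood test gave CG33774 an unadjusted p of 0.00305 and an adjusted p of 0.9998 in the direct contrast.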

How the data were processed

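The authors mapped 50-base single-end reads to dm3 with Tophat and Bowtie and deposited the raw count of each gene made with easyRNASeq. Their versions and annotation, and how strand and reads with more than 1 match were treated, are not given in the sources used here. The counts were analysed with edgeR 4.0.16 in R 4.3.3: filterByExpr with 3 groups, TMM scaling, 1 fit of all 9 libraries with no block, and quasi-likelihood F tests adjusted after Benjamini and Hochberg. Standard errors were taken from the fold change and its F (absolute change over root F). Symbols stand as in the table. The 451 rows without one and 5 turned into dates took theirs from a reference table. BDGP6, which held 13389 of the 13937 identifiers, gave current names, lengths and overlaps. It is not the build used by the authors, so no coordinates are given.

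The genes and the 56 lists were chosen with earlier results of these data known. Named are the 12 largest rises and 12 largest falls among well-counted called genes without overlap of the groups, up to 4 called members per list and direction, 10 genes the study measured by qRT-PCR, and the 3 called genes with the smallest p in each direction, apart from items not reported here. Other members named to describe a list were chosen after their values were seen. The alternatives tried were DESeq2 1.42.0, edgeR's likelihood ratio test, other scaling, filters and thresholds, own 6 libraries, the replicate block, removal of a length trend and each library left out. No nucleotide or protein sequence was used here.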

Additional observations from a re-analysis of the deposited data

How the results depend on the processing

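The 981 genes called became 1781 with the replicate letters as a block, 373 at an adjusted p under 0.01 and 537 with a change of at least 1.2-fold. The higher calls became 860, 199 and 231 under these settings, the lower calls 921, 174 and 306, and the well-counted calls (876) 1590, 353 and 432. With library totals only, 307 were called higher and 778 lower, while the 981 became 1085. When each library was left out in turn, the calls ranged from 487 to 1007, those higher from 248 to 494, those lower from 221 to 513 and the well-counted calls from 448 to 902. Without the 3 libraries of letter C, chosen after the data were seen, 813 were called. DESeq2 called 1108, the likelihood ratio test 1166, no filter 899 and own 6 libraries 854. Vehicle and DILP2 samples with the same letter did not deviate together in each pair (correlations 0.14, -0.02 and 0.29 for A, B and C). Those with different letters had correlations from -0.24 to 0.11. The letters were not taken as a pairing. Pairs with DILP5 libraries were not checked, so whether DILP2 and DILP5 libraries share an effect of the letter was not tested. Of the well-counted genes, 207 of the 463 called higher and 166 of the 413 called lower were called in each of the 9 fits that left out 1 library. Of the 1119 genes under 1 CPM, 4 were called higher and 6 lower, and small changes were not detectable at that depth.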
